A study of Homo sapiens with 6 samples.

Results

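The sestrins and other genes whose products restrain mTORC1 were examined in HK-2 cells, an established human kidney proximal tubule line, with and without overexpression of *PPM1K*, the mitochondrial phosphatase that activates breakdown of branched-chain amino acids. The set was chosen by gene symbol, and it and the gene lists used below were chosen with earlier results of these data known. It holds 10 genes of the 31369 in the deposited count table, SESN1, SESN2, SESN3, DDIT4, DDIT4L, CASTOR1, DEPTOR, EIF4EBP1, TSC1 and TSC2. All 10 were also found among the 30896 genes with deposited FPKM, the fragment count of a gene scaled to transcript length and library size. Of these, 8 passed the filter on low counts and were tested, while SESN3 and DDIT4L did not pass.

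The control group (NC) and the overexpression group (OE) had 3 samples each. By genotype the NC cells were wild type and the OE cells overexpressed *PPM1K*, although the sample titles name a control and a *PPM1K* short hairpin. Every sample was labelled day 10 and carried the treatment entry chronic kidney disease, and the number in the cell line entry differed from sample to sample. The same protocol text stands for both groups. It describes culture in serum-free medium and lipid transfection with 2.5 μg of a *PPM1K* plasmid. By the paper, cells were grown with serum, put in serum-free medium shortly before transfection and given fresh medium some hours after it. What the NC cells received was not given in the sources used here. Transfected cells were sequenced in bulk, so more transfected cells and more RNA per cell cannot be told apart, and nothing in the labels says that the samples of a group were separate cultures. The p-values therefore measure the spread between these samples, which may be technical.

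mTORC1 is the protein kinase complex that couples amino acids, energy and growth factors to protein synthesis and autophagy. Leucine is one of the amino acids it responds to, and sestrins and CASTOR proteins carry leucine and arginine signals to it through the GATOR complexes and the Rag GTPases at the lysosome. A separate arm runs through the TSC complex, which switches off the small GTPase RHEB, while DEPTOR binds the kinase itself and 4E-BP proteins hold back the cap-binding factor EIF4E until mTORC1 phosphorylates them. In kidney tubule cells this pathway is known for its part in growth and in the response to starvation and injury. Only RNA was measured here, and neither kinase activity nor phosphorylation was.

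The counts of *PPM1K* were 37, 19 and 53 in NC and 3294, 3531 and 2919 in OE, so the gene went with the genotype entries and not with the short hairpin titles. Total counts ranged from 34635770 to 36116963 in NC and from 36033404 to 39850802 in OE. NC replicate 2 stood apart, with 3551 genes counted in that sample alone against 449 to 766 in the others. In the paper it also had the largest shares of intronic, intergenic and antisense reads of the 6 samples. Of 15 proximal tubule and epithelial markers, 6 reached an FPKM of 1 in any sample, CDH2, CDH16, PAX8, KRT8, KRT18 and EPCAM. The tubule genes AQP1, CUBN, GGT1 and SLC34A1 did not, and LRP2 had no FPKM above 0 in any sample. The summed FPKM of these markers was 599 to 665 in NC and 535 to 571 in OE, so the groups did not overlap, and the part of this shift in the results was not tested. Of 15 markers of endothelium, blood cells, podocytes, other tubule segments and mesenchyme, COL1A1 alone reached an FPKM of 1, and the summed FPKM of that list was 2.24 to 2.36 in NC and 1.77 to 2.25 in OE.

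Over all genes, edgeR's quasi-likelihood test was made on 15878 genes. Calls required a fold change (FC) of OE over NC above 2 or below 0.5 together with an adjusted p (Benjamini-Hochberg, over all tested genes) under 0.05. By this rule 1.73% of the tested genes were called higher and 3.79% called lower in OE. Of the 8 tested members, SESN2 was called higher and none was called lower. With the adjusted p alone, 24.9% of all tested genes were higher and 23.7% lower. Among the members 3 were then higher, SESN2, EIF4EBP1 and DDIT4, and 4 were lower, DEPTOR, SESN1, TSC1 and TSC2. CASTOR1 did not pass. In CPM, counts scaled to library size with edgeR's TMM factors and not to length, the 2 groups were fully separate in each of the 8, against 55.3% of all tested genes. The median log2 of the FC (log2FC) was −0.19 over the 8 members and −0.0032 over all tested genes, with members on both sides of 0.

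**Figure D1:**
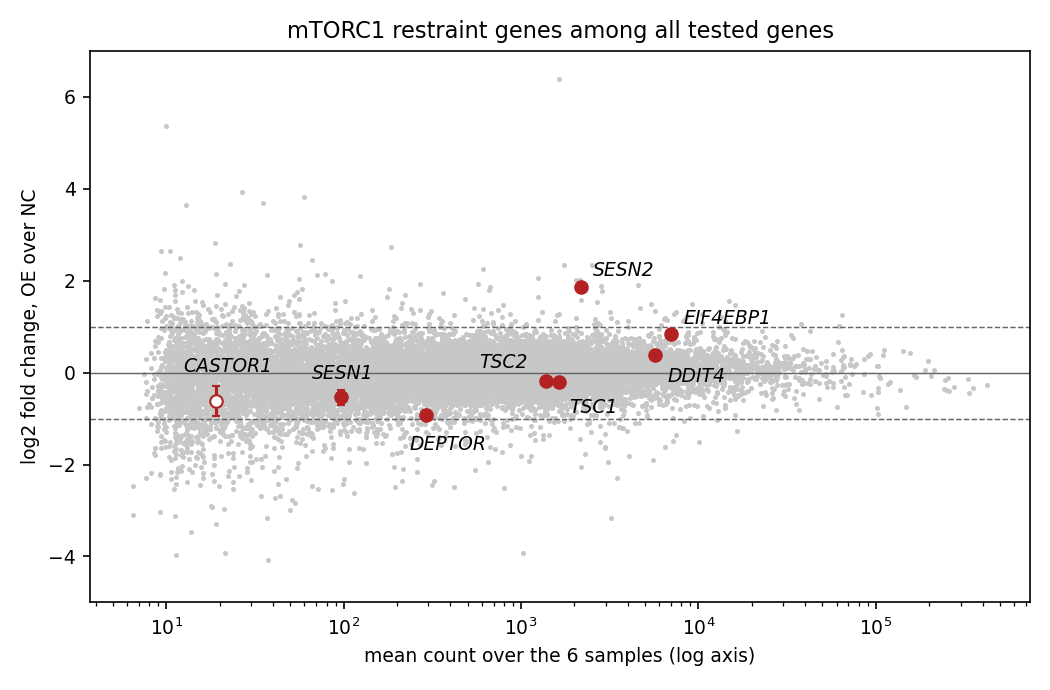
Log2 fold change of OE over NC against the mean count of each gene on a log axis, with every tested gene in grey and the 8 tested members in red. Red bars are standard errors, filled points had an adjusted p under 0.05, the open point is CASTOR1, and the dashed lines mark a fold change of 2 in either direction, which SESN2 alone of the members exceeded with a log2 fold change of 1.87.

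The members differed far more from each other in level than between the groups. In FPKM, which can be compared between genes, the order of the NC means was EIF4EBP1, DDIT4, SESN2, DEPTOR, TSC1, TSC2, SESN1 and CASTOR1, from 143 down to 0.217. EIF4EBP1 lay above 99.2% of the genes of the FPKM table in NC, DDIT4 above 97.8% and SESN2 above 86.2%. The order in OE was the same but for DEPTOR, which came below TSC1. No neighbours in the NC order overlapped in their samples. In OE the lowest FPKM of DEPTOR, 1.87, and the highest of TSC2, 1.86, nearly touched.

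**Figure D2:**
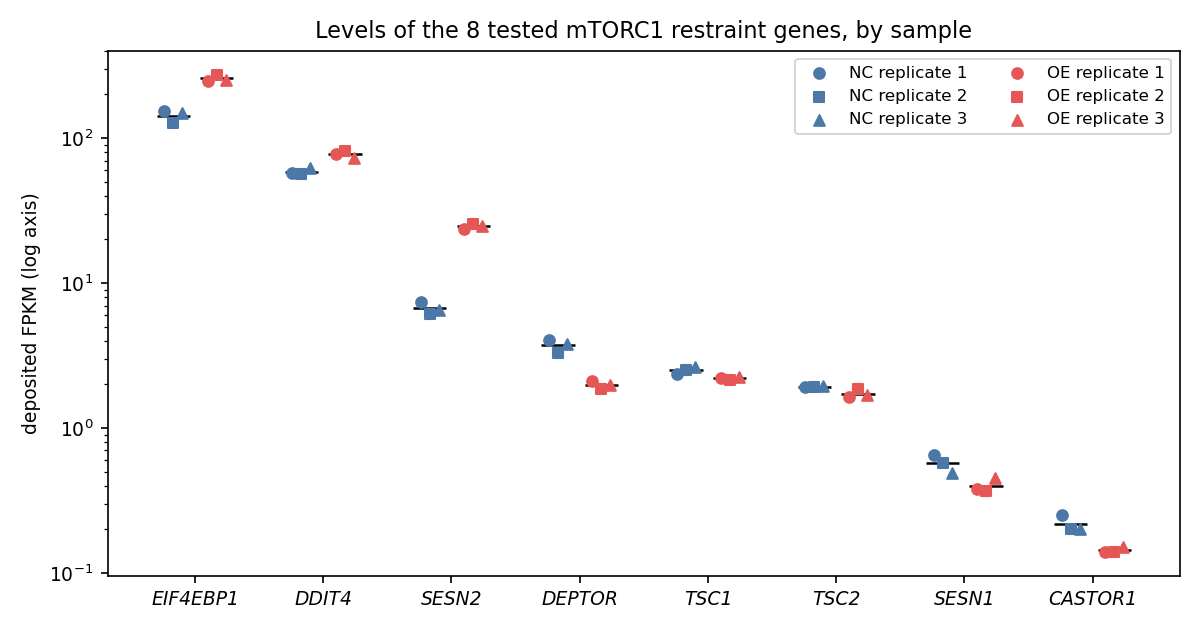
Deposited FPKM on a log axis for the 8 tested members in each of the 6 samples, NC in blue and OE in red, with the marker shape giving the replicate and a black line the group mean. SESN2 shows the widest gap between the groups, from a mean of 6.69 in NC to 24.7 in OE, while the points of TSC1 and TSC2 lie close together.

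The promoter windows of the members that rose, and of the one member with a match to the stress element searched for, are printed here for reference. They come from RefSeq on GRCh38.p14 and run from 250 bases before to 50 after the annotated start, 5′ to 3′ on the strand of the gene. The table held 11 windows for 8 of the members, all but EIF4EBP1 and DEPTOR. Both strands were searched for TGATGNAA, the core of the C/EBP-ATF composite element bound by ATF4 and CHOP, and for ACGTG, the core of the hypoxia response element, and matches are in capitals. Of all 35116 windows, 3.62% held the first and 21.4% the second.

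SESN2 (chr1:28259268-28259567, plus strand): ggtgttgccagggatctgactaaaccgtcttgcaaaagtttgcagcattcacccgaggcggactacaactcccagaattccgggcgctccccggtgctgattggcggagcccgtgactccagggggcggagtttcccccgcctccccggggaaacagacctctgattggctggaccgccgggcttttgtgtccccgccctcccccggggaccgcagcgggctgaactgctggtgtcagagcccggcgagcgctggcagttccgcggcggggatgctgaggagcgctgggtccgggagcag
DDIT4 (chr10:72273674-72273973, plus strand): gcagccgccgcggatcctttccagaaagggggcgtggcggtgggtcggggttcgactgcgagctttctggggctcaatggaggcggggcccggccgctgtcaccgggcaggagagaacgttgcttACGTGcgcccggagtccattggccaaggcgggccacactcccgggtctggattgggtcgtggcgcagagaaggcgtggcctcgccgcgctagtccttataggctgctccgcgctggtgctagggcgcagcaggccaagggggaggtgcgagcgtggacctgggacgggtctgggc
TSC2 (chr16:2047735-2048034, plus strand): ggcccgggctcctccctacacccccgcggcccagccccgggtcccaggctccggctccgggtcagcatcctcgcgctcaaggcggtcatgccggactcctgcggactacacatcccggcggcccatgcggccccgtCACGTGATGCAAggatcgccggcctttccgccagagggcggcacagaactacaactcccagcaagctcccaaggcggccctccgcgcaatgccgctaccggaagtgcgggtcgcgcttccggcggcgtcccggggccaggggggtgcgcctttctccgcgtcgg

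The SESN2 window held neither motif. DDIT4 held ACGTG once, at −125 to −121 from the start site counted as 0, and not the composite element. The upstream window of TSC2, a gene with a log2FC of −0.18, held the composite element core at −110 to −103, overlapped by ACGTG on both strands from −114 to −109. No other window of a member held either motif. A match is a description of these letters and not of binding, and elements outside the 300 bases were not searched.

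SESN2, a stress-induced leucine-binding protein that holds back GATOR2, was the most changed member. Its FPKM was 7.42, 6.16 and 6.48 in NC replicates 1, 2 and 3. In OE it was 23.77, 25.53 and 24.75. All OE samples were thus more than 3 times as high as any NC sample, the smallest ratio between the groups being 3.24 in CPM. The FC was 3.64 and the log2FC 1.87, with a SE (SE) of 0.06 and an adjusted p of 2.3e-15 in edgeR. SESN2 ranked 38 of the 15878 tested genes from the top by log2FC, and 0.0882% of them had a smaller p. It remained called against a test for a fold change of 2, with an adjusted p of 3.6e-10. Without NC replicate 2 the log2FC was 1.82. The gene lies on chromosome 1 from 28259518 to 28282491 on the plus strand of GRCh38 in GENCODE release 44 (ENSG00000130766.5) and overlaps no other gene of that release.

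SESN1, a stress-responsive sestrin that also binds GATOR2, had counts of 124, 113 and 98 in NC. In OE they were 78, 79 and 88. The highest OE sample lay 1.13-fold below the lowest NC sample in CPM, and the log2FC was −0.54 (SE 0.17, adjusted p = 0.012 from edgeR). Without NC replicate 1 it was −0.44 with an adjusted p of 0.071, and the fall was then no longer past the threshold. On log2(FPKM + 1), a scale that understates changes of low genes, limma gave −0.16 with an adjusted p of 0.023. SESN1 (chromosome 6, 108984309 to 109094846, minus strand) overlaps RNU6-653P on its own strand and ENSG00000271730 on the other.

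SESN3, which in other cells is induced by FOXO factors, was near the limit of detection. Its counts were 7, 6 and 3 in NC and 3, 7 and 1 in OE, and the groups overlapped. Summed over samples, 16 counts in NC and 11 in OE gave a ratio of 0.639 with an exact 95% interval from 0.268 to 1.47, which covers counting error only. A difference of SESN3 was not detectable at this depth.

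SESN2 dominated the family in both groups. The summed FPKM of the 3 genes was 8.09, 6.74 and 6.98 in NC and 24.2, 25.9 and 25.2 in OE. SESN2 made up 92.0% ± 0.757 (SD, n = 3) of it in NC against 98.4% ± 0.142 (SD, n = 3) for OE, a difference of 6.38 percentage points. The samples did not overlap, and the exact two-sided permutation p was 0.1, the smallest that 3 samples against 3 allow. Per length, SESN2 stood at 10.8 to 13.2 times SESN1 in NC and at 55.0 to 69.0 times in OE.

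**Figure D3:**
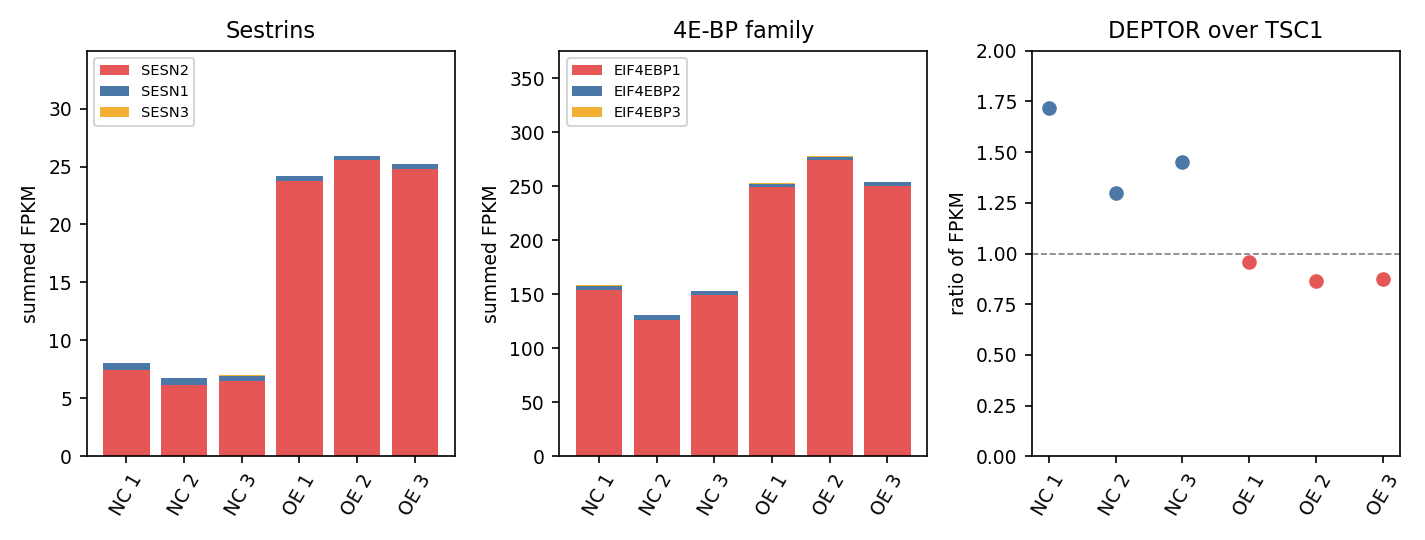
Summed deposited FPKM of the sestrins (left) and of the 4E-BP family (middle) in each sample, stacked by gene on axes that start at 0, and the ratio of DEPTOR to TSC1 in FPKM (right, NC blue, OE red, dashed line at 1). SESN2 and EIF4EBP1 fill nearly all of their bars in both groups, and DEPTOR was above TSC1 in each NC sample and below it in each OE sample.

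DDIT4, also called REDD1, is induced by hypoxia, glucocorticoids and the integrated stress response and acts through the TSC complex. Its FPKM was 57.44, 56.1 and 61.89 in NC. In OE it was 77.67, 82.05 and 72.98. Every OE sample was higher than every NC sample, but the gap was far smaller than for SESN2, with an FC of 1.31 (log2FC 0.39, SE 0.06, adjusted p = 6.8e-06 from edgeR). The log2FC lay between 0.35 and 0.44 with each sample left out in turn. DDIT4 (chromosome 10, 72273919 to 72276036, plus strand) overlaps no annotated gene.

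DDIT4L, its paralogue, was practically not counted. It had 0 of 105510465 counts in NC, which allows a level of up to 0.0284 CPM over the group, and a single count in OE replicate 1. No fold change is given for it.

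TSC1 and TSC2 encode the subunits of the complex that inactivates RHEB. The FPKM of TSC1 was 2.37, 2.51 and 2.62 in NC and 2.21, 2.16 and 2.26 in OE. That of TSC2 was 1.92, 1.92 and 1.95 in NC and 1.64, 1.86 and 1.68 in OE. For both genes the highest OE sample lay just below the lowest NC sample, with a ratio in CPM of 1.06 for TSC1 and 1.04 for TSC2. TSC1 had a log2FC of −0.20 (SE 0.06, adjusted p = 0.010 from edgeR), and TSC2 of −0.18 (SE 0.06, adjusted p = 0.024 from edgeR). Both calls were sensitive to single samples. Without NC replicate 3 the adjusted p of TSC1 was 0.072. That of TSC2 was 0.052, 0.063 and 0.071 without NC replicates 1, 2 and 3, and 0.11 and 0.061 without OE replicates 1 and 3. In limma on log2(FPKM + 1) neither passed, with an adjusted p of 0.10 for TSC1 and 0.17 for TSC2. The ratio of TSC1 to TSC2 in FPKM was 1.30 ± 0.0556 (SD, n = 3) in NC against 1.28 ± 0.107 (SD, n = 3) for OE, a difference smaller than the spread between samples. TSC2 (chromosome 16, 2047967 to 2089491, plus strand) overlaps PKD1 on the opposite strand and TSC1 (chromosome 9, 132891348 to 132946874, minus strand) overlaps GFI1B and MIR548AW. The library kit kept strand, and the paper lists antisense reads as a class of their own. Whether the counts per gene used strand is not stated, so reads of such pairs may not have been told apart.

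CASTOR1, an arginine sensor that binds GATOR2 when arginine is scarce, was expressed at a low level. It had 26, 21 and 21 counts in NC and 15, 16 and 16 in OE. Each OE sample was below each NC sample, yet the log2FC of −0.62 (SE 0.34) did not pass, with an adjusted p of 0.13 from edgeR. limma on log2(FPKM + 0.1), with FPKM given to 2 decimals, put it past the threshold at an adjusted p of 0.041, while DESeq2 gave 0.32. A gene named ENSG00000248751 overlaps CASTOR1 on the same strand (chromosome 22, 30285117 to 30289622).

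DEPTOR, a direct inhibitor of the mTOR kinase that is itself degraded when mTORC1 is active, fell the most of the tested members with a passing test. Its FPKM was 4.07, 3.27 and 3.81 in NC. In OE it was 2.12, 1.87 and 1.98. The lowest NC sample was 1.56 times the highest OE sample in CPM. The log2FC was −0.92 (SE 0.11, adjusted p = 6.3e-07 from edgeR), an FC of 0.530 that stops short of the threshold of 0.5. Without NC replicate 2, its lowest NC sample, the log2FC was −0.99. Of the tested genes 4.77% had a lower log2FC. The ratio of DEPTOR to TSC1 in FPKM was 1.49 ± 0.210 (SD, n = 3) in NC against 0.900 ± 0.0513 (SD, n = 3) for OE, a description with no test. DEPTOR (chromosome 8, 119873717 to 120050918, plus strand) overlaps DEPTOR-AS1 and RNA5SP277, both on the other strand.

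EIF4EBP1, or 4E-BP1, is the repressor that sequesters EIF4E, and it is also a target gene of ATF4. Its FPKM was 154, 126 and 149 in NC. In OE it was 249, 274 and 250. The lowest OE sample was 1.60 times the highest NC sample in CPM. With an FC of 1.78 the gene stayed under the threshold of 2, at a log2FC of 0.83 (SE 0.06, adjusted p = 5.1e-10 from edgeR). NC replicate 2 was its lowest sample, leaving a log2FC of 0.76 when it was removed. EIF4EBP1 (chromosome 8, 38030534 to 38060365, plus strand) overlaps no annotated gene.

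The relatives and the target of 4E-BP1 moved less. EIF4EBP2, a second 4E-BP, had a log2FC of −0.26 (SE 0.07, adjusted p = 0.0047 from edgeR). EIF4EBP3, which shares its locus with the ANKHD1-EIF4EBP3 readthrough gene and whose counts are uncertain for that reason, had 0.10 with an adjusted p of 0.82. EIF4EBP1 made up 96.9% ± 0.326 (SD, n = 3) of the summed 4E-BP FPKM in NC against 98.4% ± 0.114 (SD, n = 3) for OE. EIF4E itself had a log2FC of 0.33 (SE 0.05, adjusted p = 2.6e-05 from edgeR). The ratio of EIF4EBP1 to EIF4E in FPKM was 14.8, 11.9 and 14.5 in NC and 19.5, 20.5 and 18.0 in OE. The inhibitor thus rose relative to its target by 1.41-fold at the RNA level, with samples that did not overlap in either measure and an exact two-sided permutation p of 0.1 for the share and for the ratio, the smallest possible.

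Around the members, 65 further genes of the pathway in 7 lists were tested, and 1 was called higher and 1 lower, 1.54% each beside the 1.73% and 3.79% of all tested genes. At an adjusted p under 0.05 alone, 28 of the 65 were higher (43.1%) and 11 lower (16.9%), beside 24.9% and 23.7% of all tested genes. Their median log2FC was 0.10. The genes are given by role below, as counts with no test of a list.

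Of the mTOR complex subunits and assembly factors, 4 of 11 passed upwards and 1 downwards at an adjusted p below 0.05. RPTOR, the scaffold that defines mTORC1, had a log2FC of 0.38 (adjusted p = 6.2e-05 from edgeR), and AKT1S1, the inhibitory subunit PRAS40, had 0.28 (adjusted p = 1.4e-04). For MTOR the value was 0.09 with an adjusted p of 0.22. The kinase gene itself did not pass the test.

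GATOR1, which with KICSTOR switches off the Rag GTPases, had 1 of 7 genes higher and 1 lower. DEPDC5, its largest subunit, had a low level and a log2FC of −0.51 (adjusted p = 0.015 from edgeR). Its FPKM was 0.24 in each NC sample and 0.15, 0.23 and 0.14 in OE, so OE replicate 2 lay close to NC. ITFG2 of KICSTOR had a log2FC of 0.24 (adjusted p = 0.025 from edgeR). GATOR2, the complex that sestrins and CASTOR proteins bind, had 2 of 5 higher and 1 lower. WDR59 had −0.39 (adjusted p = 9.5e-04) and WDR24 0.53 (adjusted p = 0.0012), so subunits of one complex went in opposite directions.

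Among 4 further amino acid sensors CASTOR2, the partner of CASTOR1, was called lower. Its FPKM was 4.92, 4.48 and 5.31 in NC and 2.23, 2.40 and 2.02 in OE, with no overlap. The log2FC was −1.16 (SE 0.08, adjusted p = 1.4e-10 from edgeR). The gene lies among near-identical copies on chromosome 7 and overlaps RCC1L on the other strand, so its counts are uncertain. LARS1, the leucyl-tRNA synthetase that also senses leucine, had 0.54 (adjusted p = 1.4e-07). BMT2, also named SAMTOR, the sensor of S-adenosylmethionine, had −0.73 (adjusted p = 8.0e-04) and was picked out after its values were seen. CASTOR1 and CASTOR2 differed in level more than in fold change, CASTOR2 having a mean FPKM of 4.90 in NC against 0.217 for CASTOR1. A further CASTOR entry, CASTOR3, was not in the lists and had a log2FC of −1.58 (adjusted p = 3.4e-11 from edgeR). Whether reads of CASTOR2 and CASTOR3 were told apart was not tested, so this is not a separate result.

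For the Rag GTPases, Ragulator and folliculin partners, 4 of 12 were higher and 2 lower. RRAGD rose most, with an FPKM of 5.73, 5.51 and 5.91 in NC and 9.43, 8.73 and 9.03 in OE. Its log2FC was 0.65 (adjusted p = 3.2e-08 from edgeR), and that of RRAGC was 0.35 (adjusted p = 2.5e-05). RagC and RagD are the alternative partners of RagA and RagB in the active dimer. RRAGA, named after its value was seen, had −0.34 (adjusted p = 0.0015).

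The list of the TSC-RHEB arm with AKT and AMPK had 10 of 13 genes (76.9%) past that threshold upwards and 1 (7.69%) downwards. Of all tested genes, 24.9% were higher and 23.7% lower by that rule. The median log2FC of the list was 0.26. It mixes genes that restrain mTORC1 with genes that drive it. PRKAG2 and PRKAA2, subunits of the energy sensor AMPK, had 0.43 (adjusted p = 4.7e-06 from edgeR) and 0.76 (adjusted p = 2.8e-05). All 6 tested AMPK subunit genes were among the 10, a grouping that was not planned. The weakest of them, PRKAA1, had 0.21 (adjusted p = 0.032 from edgeR). RHEB, the activator of mTORC1, was also among the 10, with 0.21 (adjusted p = 0.0014). AKT1 was the gene that was lower, at −0.16.

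Of 13 substrates and effectors, 6 were higher and 3 lower, and GRB10 was called higher. GRB10 is an adaptor phosphorylated by mTORC1 that dampens insulin receptor signalling. Its FPKM was 0.84, 0.88 and 0.84 in NC and 1.87, 2.02 and 1.86 in OE, a log2FC of 1.15 (SE 0.08, adjusted p = 3.7e-10 from edgeR). LARP1, which controls translation of ribosomal protein mRNAs, had 0.57 (adjusted p = 7.9e-08). The kinase gene RPS6KB1 did not pass, at 0.14 with an adjusted p of 0.19.

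**Figure D4:**
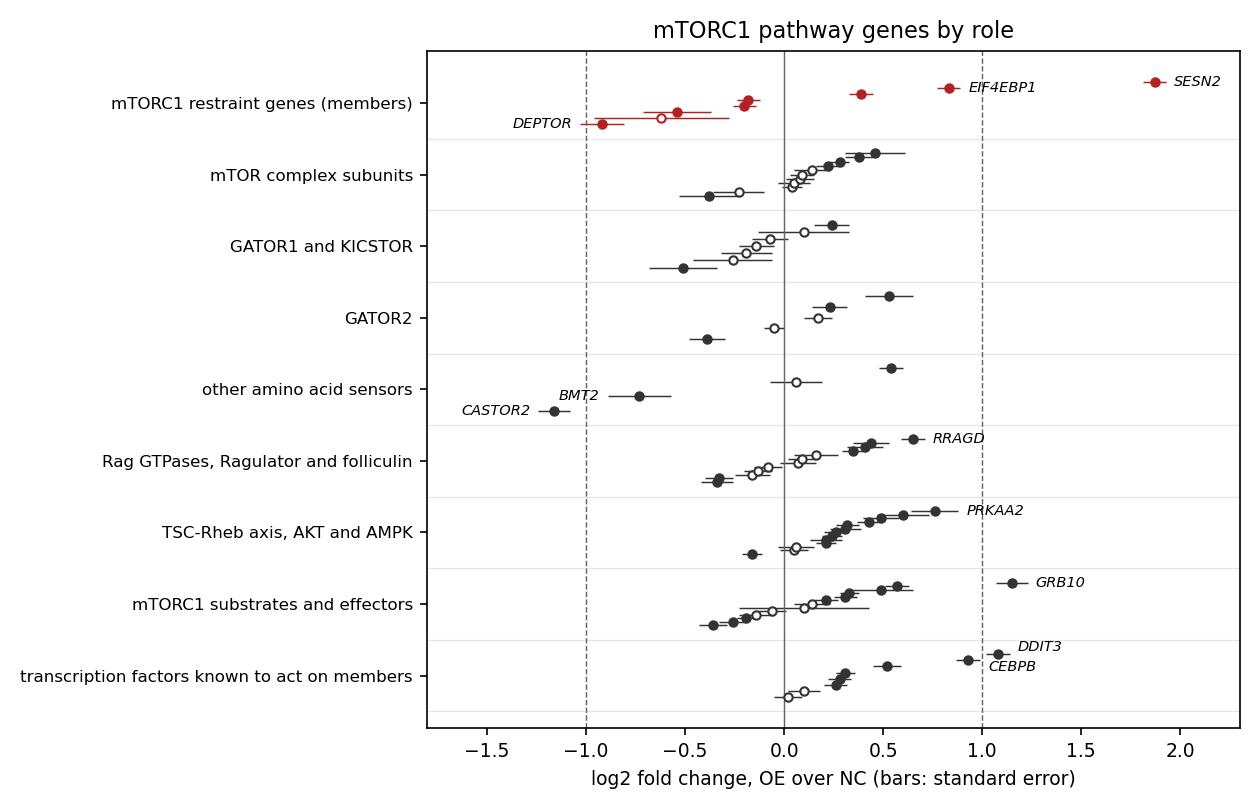
Log2 fold change of OE over NC for the 8 tested members (red) and the tested genes of each pathway list (black), with bars for the standard error. Filled points had an adjusted p under 0.05, and dashed lines mark a fold change of 2, beyond which lay SESN2, GRB10, DDIT3 and, downwards, CASTOR2.

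Of 8 tested genes of transcription factors known to act on members, 6 (75.0%) were higher at an adjusted p under 0.05 and none lower. By that rule 24.9% of all tested genes were higher and 23.7% lower, and the list was not tested as a set. DDIT3, which encodes CHOP, was called higher with 1.08 (adjusted p = 3.1e-12 from edgeR). However, DDIT3 overlaps MARS1 and MBD6 on the other strand, and ENSG00000285133 and MIR616 on its own. MARS1 was higher too, with 1.13 (adjusted p = 1.8e-13 from edgeR), and its part in the counts of DDIT3 was not tested. CEBPB had 0.93 (adjusted p = 3.1e-11) and ATF4 0.28 (adjusted p = 4.2e-04). FOXO1 was not tested for its low counts. Whether any of these acts on a member in these cells was not tested.

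The genes whose log2(CPM + 0.1) over the 6 samples followed that of SESN2 most closely, members left out, were ZFAND3, LONP1, M6PR, GHITM and IFT46, each with a Pearson r of at least 0.9995. The 6 points form 2 separate groups, and 324 genes had an r above 0.99, so the measure mainly ranks genes by how cleanly they separate NC from OE. Their fold changes were smaller than that of SESN2, with log2 values from 0.48 for GHITM to 0.91 for IFT46.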

How the data were processed

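RNA of 6 HK-2 samples was sequenced. Groups were taken from the genotype entries and replicate numbers from the titles. The authors trimmed reads with FASTX-Toolkit, aligned them with HISAT2 to GRCh38 and kept unique alignments. They deposited raw counts per gene and FPKM rounded to 2 decimals. The counter, its strand setting and the annotation are not given in the sources used here, and the submitters' processing notes also list mm10.

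edgeR 4.0.16 (R 4.3.3) was run on the counts with filterByExpr, TMM and the quasi-likelihood test, adjusted over 15878 genes. The SE was the log2FC over the root of F. The step was tested on simulated data. Alternatives were DESeq2 1.42.0, limma 3.58.1 on log2(FPKM + 1) or log2(FPKM + 0.1), other normalizations and filters, glmTreat, the replicate number as a block and each sample left out. Shares used an exact permutation test. Intervals and floors (3 counts) cover counting error only. Pairs of replicates differed by a chi-square of 4.83 to 11.0 per gene, so none was a copy.

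The members and gene lists were chosen with earlier results of these data known. Named were all members, *PPM1K*, from each list the called genes and the 2 with the smallest p, and the 5 genes most like SESN2. MTOR, RPS6KB1, RHEB, AKT1, PRKAA1, ATF4, EIF4E, EIF4EBP2, EIF4EBP3, FOXO1, BMT2, RRAGA, MARS1 and CASTOR3 were added outside this rule, with their values known.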

Additional observations from a re-analysis of the deposited data

How the results depend on the processing

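SESN2 was the only member called in each alternative run. EIF4EBP1, DDIT4 and DEPTOR kept their direction in each and stayed at an adjusted p under 0.05 in each but glmTreat, which tests against a fold change of 2 and gave every tested member other than SESN2 an adjusted p of 1.0. With each sample left out the log2FC was 1.82 to 1.94 for SESN2, 0.76 to 0.88 for EIF4EBP1, 0.35 to 0.44 for DDIT4, −0.99 to −0.85 for DEPTOR, −0.63 to −0.44 for SESN1, −0.24 to −0.16 for TSC1, −0.24 to −0.15 for TSC2 and −0.68 to −0.49 for CASTOR1. The members lower at an adjusted p under 0.05 then numbered 2 to 4. limma on log2(FPKM + 1) gave −0.12 for TSC1 and −0.10 for TSC2, both past no threshold, and −0.09 for CASTOR1 with an adjusted p of 0.043. On log2(FPKM + 0.1) these were −0.17, −0.15 and −0.38, the last with an adjusted p of 0.041. SESN1 was −0.16 and DEPTOR −0.65 on log2(FPKM + 1), and SESN1 −0.42 on log2(FPKM + 0.1), a scale on which a pseudocount understates the change of low genes. The cause was not tested. Over all genes, limma called 55 higher and 69 lower on log2(FPKM + 1), 155 and 282 on log2(FPKM + 0.1), and glmTreat against a fold change of 2 called 68 and 118, beside 274 and 601. Under log2(FPKM + 1) and glmTreat, 0 pathway genes were called in either direction, where edgeR's main test called 1 each. With TMM-normalized CPM, which is not per length, in place of FPKM, the difference of OE minus NC was 9.23 percentage points for the share of SESN2, 9.16 for that of EIF4EBP1 and 0.993 for the ratio of EIF4EBP1 to EIF4E, beside 6.38, 1.58 and 5.61. Same-numbered NC and OE samples had correlations of their deviations of −0.00319, −0.0663 and −0.0542, so no shared deviation was seen. This cannot show whether the samples were paired by number. With the replicate block SESN2 had 1.87 and no call of a member changed. CASTOR1, SESN3 and DDIT4L had few counts, and the effect of depth on them was not tested.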
